A study of Drosophila melanogaster with 6 samples.

Results

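The actin genes of *Drosophila melanogaster* form a family of 6 members, chosen here by name from 17489 genes in the count tables. Their products were compared between flies on a sugar diet and flies on a control diet in 6 RNA-seq libraries. The study describes the flies as male and the starting material as heads. Marker genes of other tissues, given below, differed between diets. The sugar diet (SD) held 30% sucrose and the control diet (CD) held 5% sucrose, and flies were kept on either one from day 5 to day 12 of adult life. There were 3 biological replicates on each diet, each made from 300 heads. All flies of both diets had the genotype Gr5a:Pclc429>UAS-Rpl3-3XFLAG, so the *Pcl* (Polycomblike) mutation was shared by the sugar and the control flies, and no library from *Pcl* wild-type flies was analysed here. The *Gr5a* driver directs a FLAG-tagged ribosomal protein to sweet taste neurons, and RNA bound to tagged ribosomes can be pulled down with an antibody against the tag. The labels name *Gr5a* sensory neurons as the cell type but do not state for each library whether the pulled-down or the input fraction was sequenced.

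Actin monomers assemble into filaments that give cells their shape, serve as tracks for cargo in the cortex and, together with myosin, contract muscle. In the fly, *Act5C* and *Act42A* encode the cytoplasmic actins, which nearly every cell makes, including neurons and glia. *Act57B*, *Act79B*, *Act87E* and *Act88F* encode actins of muscle. *Act57B* and *Act87E* are used in body wall and other muscles, *Act79B* in the tubular muscles of legs and thorax, and *Act88F* in the indirect flight muscles, which lie in the thorax and not in the head.

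The cells behind these values cannot be taken from the label alone. The 4 sweet taste receptor genes *Gr5a*, *Gr64a*, *Gr64f* and *Gr61a* summed to only 7.44 to 41.6 normalized counts in SD libraries and 18.0 to 43.3 in CD libraries. Photoreceptor markers (*ninaE*, *trp*, *ninaC*, *inaD*) summed to 370359 to 487446 in SD libraries and 471441 to 578329 in CD libraries, and muscle markers (*Mhc*, *Mlc2*, *up*, *Tm2*, *Prm*) summed to 31374 to 40962 in SD libraries and 38140 to 46739 in CD libraries. Neuron markers (*elav*, *nSyb*, *Syt1*, *brp*, *Syn*) summed to 75806 to 89579 in SD libraries and 87402 to 89826 in CD libraries. The actins are therefore described as measured in these head libraries, without assignment to a cell type. As in any bulk sample, fewer cells of a type and less RNA per cell cannot be told apart.

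In the dm6 genome the actin genes lie apart from each other. *Act5C* (FBgn0000042) spans X:5900861-5905399 on the plus strand, with 5 annotated transcripts. *Act42A* (FBgn0000043) spans 2R:6013910-6015689 on the minus strand and *Act57B* (FBgn0000044) spans 2R:20944021-20946431 on the plus strand. *Act79B* (FBgn0000045) spans 3L:21985210-21987190, *Act87E* (FBgn0000046) spans 3R:13425983-13428375 and *Act88F* (FBgn0000047) spans 3R:15439969-15442177, all on the plus strand. The coding part has 1128 bases in every member, so that the genes differ in length by their noncoding exon bases, which number 467 in *Act88F* and 1850 in *Act5C*. Reads that map to several places were not counted for any gene, and the coding parts of actin genes resemble each other. How many reads each member lost in this way was not measured, so comparisons of level between members are uncertain. An exon of *Act57B* also holds a small nucleolar RNA gene (FBgn0065059), 96 bases long on the same strand, and reads falling there are assigned to neither. *Act87E* overlaps the long noncoding RNA gene *lncRNA:CR45591* on the opposite strand over 60 exonic bases. Counts on the opposite strand made up 0.284% to 1.55% of the stranded counts of the members.

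Reads assigned to genes on the sense strand numbered 16691685 to 19136781 in SD libraries and 12617127 to 24076315 in CD libraries. The actin genes together took 0.151% to 0.160% of them in SD libraries and 0.131% to 0.171% in CD libraries, that is, 26497 to 28946 raw counts in SD libraries and 16496 to 36484 in CD libraries. *Act5C* supplied 58.4% to 64.7% of the normalized actin counts in SD libraries and 57.5% to 64.1% in CD libraries. *Act88F* supplied 0.181% to 0.269% in SD libraries and 0.274% to 0.491% in CD libraries. Counts were normalized with DESeq2 size factors, and differences between diets were tested with the DESeq2 Wald test over all genes, with q the p-value adjusted over all genes tested and q under 0.1 taken as changed.

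**Figure D1:**
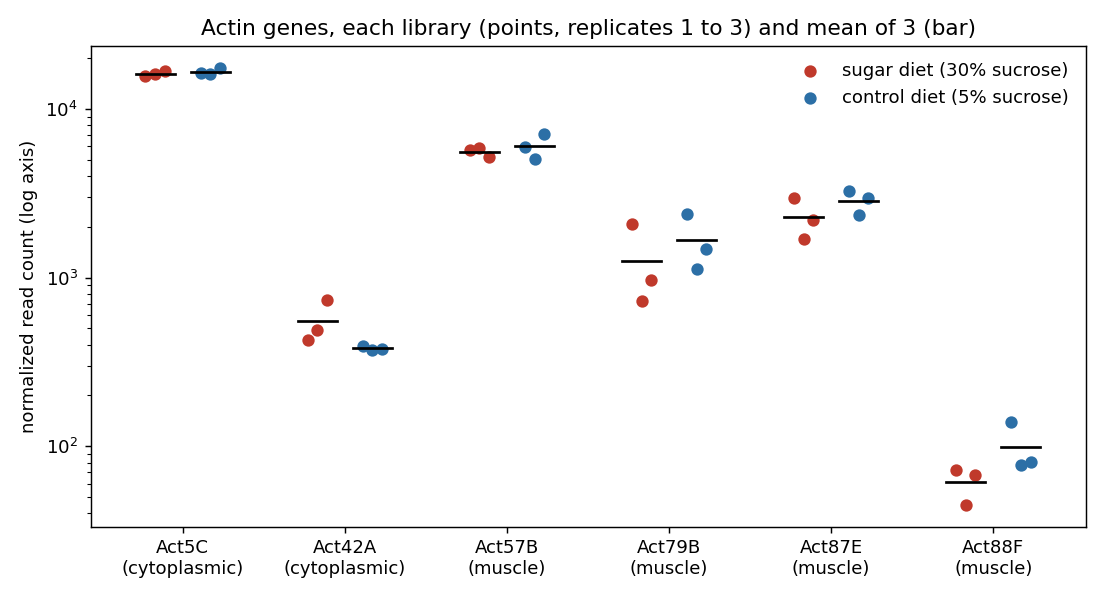
Normalized counts of each actin gene (log axis) in the 3 sugar diet libraries, left, and the 3 control diet libraries, right, with points for libraries and bars for the mean. *Act42A* lay between 427.6 and 740.9 in SD libraries, all above the CD libraries at 373.5 to 394.5, and *Act5C* lay between 15713 and 16755 in SD libraries and between 15985 and 17520 in CD libraries.

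Among the cytoplasmic actins, the abundant *Act5C* did not differ between diets. The less abundant *Act42A* was called higher on the sugar diet, a call that depended on the test and the libraries used. *Act5C* had 15713, 16041 and 16755 normalized counts in SD replicates 1 to 3, against 16380, 15985 and 17520 in CD replicates 1 to 3. The ranges of the diets overlapped, and both varied little, with a coefficient of variation of 3.29% among SD libraries and 4.79% among CD libraries. Its log2 fold change was -0.04 ± 0.08 (SE, n = 3 per diet; DESeq2 q = 0.937), and the 95% interval allowed a fold of 0.871 to 1.09. By a test of practical equivalence with a margin of 1.5-fold in either direction, *Act5C* was unchanged (equivalence q = 6.87e-09).

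*Act42A* had 427.6, 489.3 and 740.9 normalized counts in SD replicates 1 to 3, against 394.5, 373.5 and 378.9 in CD replicates 1 to 3. All SD libraries exceeded all CD libraries, and SD replicate 3 stood well above the other two. The mean was 553 ± 166 in SD libraries and 382 ± 10.9 in CD libraries (SD, n = 3 each). This corresponded to a 1.44-fold increase (95% interval 1.09 to 1.92; log2 fold change 0.53 ± 0.21 (SE); DESeq2 q = 0.0816). The call was not made by the quasi-likelihood test of edgeR (q = 0.154). It was also lost without SD replicate 3, where the log2 fold change was 0.26 (DESeq2 q = 0.580), without SD replicate 2 (DESeq2 q = 0.142) and without CD replicates 1, 2 or 3 (DESeq2 q = 0.260, 0.271 and 0.265), and it was kept without SD replicate 1 (DESeq2 q = 0.0117). SD replicate 3 was also the library with the highest sums of testis markers (4671 normalized counts, against 1566 and 2392 in the other SD libraries and 34.8 to 50.2 in CD libraries), accessory gland markers (3102, against 1149 and 1073 in the other SD libraries and 4.54 to 41.4 in CD libraries) and gut markers (7001, against 2061 and 2689 in the other SD libraries and 67.9 to 320.3 in CD libraries). In SD against CD libraries 7 of 7 testis markers, 6 of 6 accessory gland markers and 4 of 7 gut markers were higher by the DESeq2 test. Of all 14254 tested genes 14% were higher and 0.54% lower. The marker lists were chosen with earlier results of these data known. Fat body and yolk genes went the other way, and 3 of 3 tested (*Yp1*, *Yp2*, *Yp3*) were lower by the DESeq2 test. *Yp1*, a yolk protein gene, had 44.6, 30.0 and 19.4 normalized counts in SD replicates 1 to 3, against 117.2, 21747 and 2363 in CD replicates 1 to 3, so that CD replicate 2 stood apart. The larval serum protein gene *Lsp2* had 10702, 49.7 and 38.7 in SD replicates 1 to 3, against 10962, 10070 and 84.6 in CD replicates 1 to 3, which separated libraries within both diets. The part of these markers in the *Act42A* result was not tested. Whether each library held only heads of male flies, as the study describes, was not tested either.

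None of the muscle actins passed the test, which took no account of replicate numbers. All 4 had a mean that was lower in SD than in CD libraries, also with the other scalings tried. *Act57B*, the most abundant of them, had 5680, 5856 and 5191 normalized counts in SD replicates 1 to 3, against 5924, 5031 and 7101 in CD replicates 1 to 3. The SD values fell inside the range of the CD values. The means were 5576 ± 344 in SD libraries and 6019 ± 1038 in CD libraries (SD, n = 3 each), with a fold of 0.926 (95% interval 0.774 to 1.11; log2 fold change -0.11 ± 0.13 (SE); DESeq2 q = 0.843). *Act57B* was thus practically unchanged within 1.5-fold (equivalence q = 0.000889).

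*Act87E* had 2953, 1686 and 2196 normalized counts in SD replicates 1 to 3, against 3268, 2356 and 2944 in CD replicates 1 to 3. The groups overlapped, since SD replicate 1 lay above CD replicates 2 and 3. The means were 2278 ± 638 in SD libraries and 2856 ± 462 in CD libraries (SD, n = 3 each), a fold of 0.797 with a 95% interval of 0.615 to 1.03 (log2 fold change -0.33 ± 0.19 (SE); DESeq2 q = 0.395). The equivalence test was not passed (equivalence q = 0.195), so that *Act87E* was called neither changed nor unchanged. Without SD replicate 1 it was called lower, with a log2 fold change of -0.56 (DESeq2 q = 0.0142).

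*Act79B* was the most variable member. It had 2064, 721.8 and 964.7 normalized counts in SD replicates 1 to 3, against 2394, 1122 and 1470 in CD replicates 1 to 3. Replicate 1 was the highest library of each diet, and SD replicate 1 exceeded CD replicates 2 and 3. The coefficient of variation was 57.2% among SD libraries and 39.6% among CD libraries, and the fold of 0.752 had a 95% interval of 0.366 to 1.54 (log2 fold change -0.41 ± 0.53 (SE); DESeq2 q = 0.861, equivalence q = 0.644).

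*Act88F*, the flight muscle actin, was the lowest member. It had 72.5, 45.0 and 67.8 normalized counts in SD replicates 1 to 3, against 139.8, 77.1 and 80.7 in CD replicates 1 to 3. All SD libraries lay below all CD libraries, by a small margin between the highest SD and the lowest CD library. The mean was 61.8 ± 14.7 in SD libraries and 99.2 ± 35.2 in CD libraries (SD, n = 3 each). The fold of 0.618 had a 95% interval of 0.379 to 1.01 and did not pass the test (log2 fold change -0.69 ± 0.36 (SE); DESeq2 q = 0.286; edgeR q = 0.301). Other genes of flight muscle were near the limit of detection: *fln* (flightin), a thick filament protein, had 3.72, 7.50 and 0.969 normalized counts in SD replicates 1 to 3 and 15.6, 4.54 and 2.95 in CD replicates 1 to 3 (DESeq2 q = 0.852). *TpnC4*, a troponin C of flight muscle, had 3.72, 3.75 and 1.94 in SD replicates 1 to 3 and 7.81, 0 and 0 in CD replicates 1 to 3 (DESeq2 q = 0.991).

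**Figure D2:**
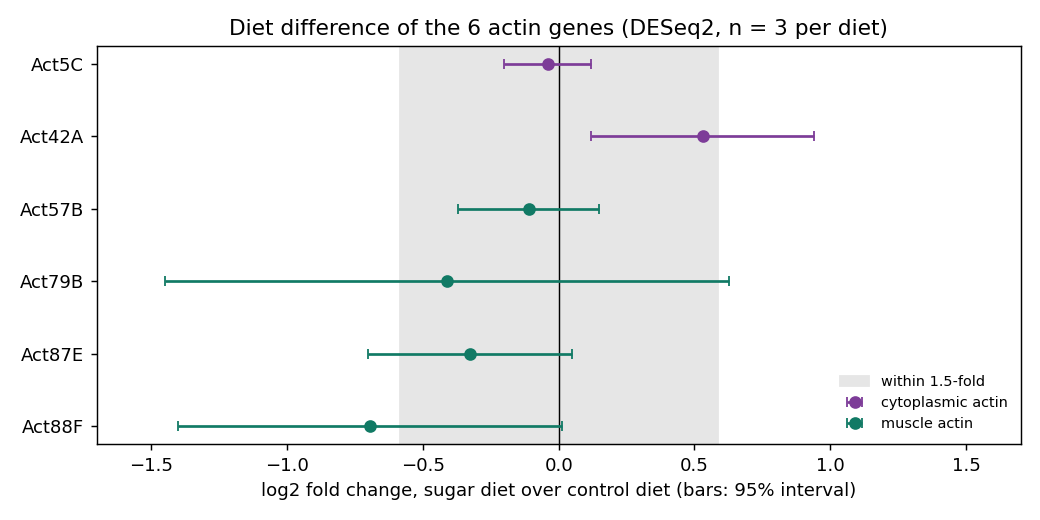
Log2 fold change (sugar over control diet) of each actin gene with its 95% interval from DESeq2 (n = 3 per diet), with the 1.5-fold margin of the equivalence test shaded. The interval of *Act42A* (0.12 to 0.94) lay above 0, those of *Act5C* (-0.20 to 0.12) and *Act57B* (-0.37 to 0.15) lay within the margin, and that of *Act79B* (-1.45 to 0.63) reached past it on both sides.

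The actin genes were then set beside all genes. The DESeq2 test called 14.5% of 14254 tested genes, of which those higher on the sugar diet made up 14% of the tested genes and those lower 0.54%. Among genes with a mean of at least 50 normalized counts, the range in which all actin genes lie, 7.4% were called, against 1 of 6 actin genes. Diets did not overlap for 2 of 6 actin genes, *Act42A* and *Act88F*, and for 18.7% of the 9019 genes of that range. Practical equivalence was found for 2 of 6 actin genes, for 40.6% of 16134 genes and for 72.6% of the 9020 genes with a mean of at least 50 normalized counts. The median log2 fold change was 0.02 over all tested genes and -0.03 over those with a mean of at least 50 normalized counts.

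The order of the members by level was described with normalized counts per kilobase of exon. Exon length was the union over all annotated transcripts, 5 for *Act5C* and 1 for *Act57B*. A single *Act5C* transcript may therefore be shorter than the length used. *Act5C* was first with 5430 ± 179 in SD libraries and 5584 ± 268 in CD libraries, and *Act57B* followed with 3234 ± 200 in SD libraries and 3491 ± 602 in CD libraries (SD, n = 3 each). The ranges of these 2 genes did not overlap on either diet. *Act87E* had 1145 ± 321 in SD libraries and 1436 ± 232 in CD libraries, and *Act79B* had 772 ± 442 in SD libraries and 1027 ± 406 in CD libraries. The ranges of these neighbours overlapped on both diets, but within every single library *Act87E* was above *Act79B*. *Act42A* had 340 ± 102 in SD libraries and 235 ± 6.70 in CD libraries, and within every single library it was below *Act79B*. Between libraries the ranges touched, since *Act42A* in SD replicate 3 (455.7) exceeded *Act79B* in SD replicate 2 (445.8). *Act88F* was last with 38.7 ± 9.23 in SD libraries and 62.2 ± 22.1 in CD libraries. When only noncoding exon length was used, a choice made after seeing the data, *Act57B* (9355 in SD libraries and 10099 in CD libraries) ranked above *Act5C* (8740 in SD libraries and 8988 in CD libraries), so that the first place depended on the length used. In CD libraries *Act79B* (3385) then also ranked above *Act87E* (3317). All counts were divided by this length, and the share of counts from coding bases was not measured.

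The muscle actins summed to 10769, 8308 and 8419 normalized counts in SD replicates 1 to 3, against 11726, 8586 and 11595 in CD replicates 1 to 3. The cytoplasmic actins summed to 16141 to 17496 in SD libraries and 16359 to 17899 in CD libraries. The ratio of muscle to cytoplasmic actin was 0.667, 0.503 and 0.481 in SD replicates 1 to 3, against 0.699, 0.525 and 0.648 in CD replicates 1 to 3. The ratios overlapped, with means of 0.550 ± 0.102 in SD libraries and 0.624 ± 0.0895 in CD libraries (SD, n = 3 each). Their log2 difference of -0.19 was smaller than the pooled SD of 0.24 between replicates. Per kilobase of exon the ratio was 0.904 ± 0.172 in SD libraries and 1.03 ± 0.150 in CD libraries.

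Within each diet, 3 of the muscle actins moved together from library to library. *Act79B*, *Act87E* and *Act88F* were highest in replicate 1 of each diet and lowest in replicate 2 of each diet, while *Act57B* was not. Of 9019 genes with a mean of at least 50 normalized counts, 13.7% were highest in replicate 1 of both diets. Across the 6 libraries the Pearson correlation was 0.96 between *Act79B* and *Act87E*, 0.86 between *Act87E* and *Act88F* and 0.83 between *Act79B* and *Act88F*. *Act42A* was negatively correlated with the muscle actins, with coefficients of -0.50 to -0.40, and *Act5C* and *Act57B* had a coefficient of 0.63. These values describe 6 libraries that share a normalization, and each diet contributes 3 of them.

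**Figure D3:**
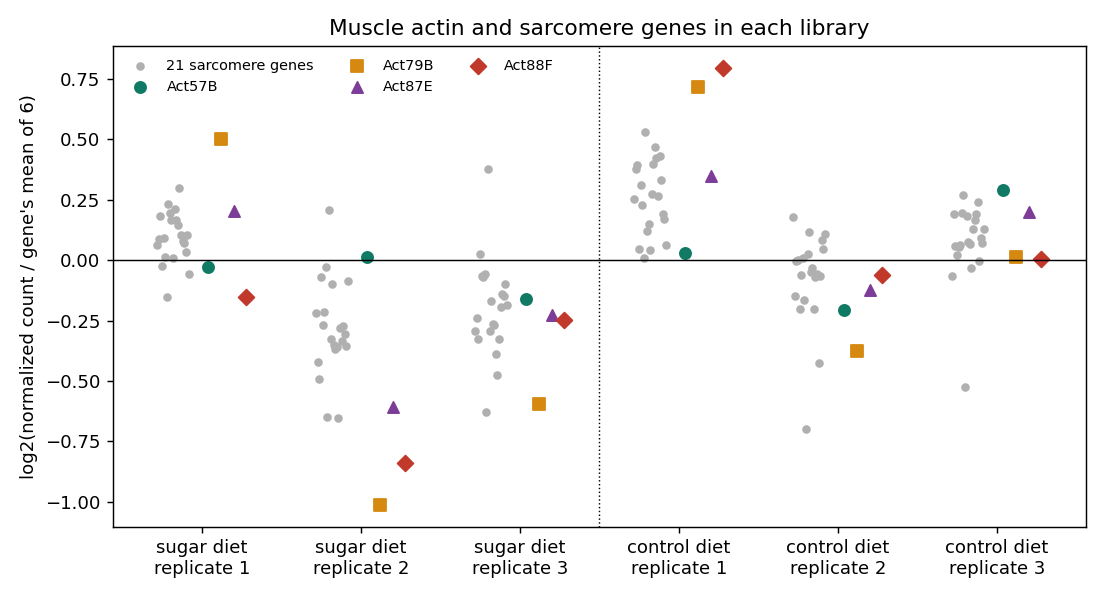
Log2 of the normalized count of each muscle actin (coloured) and sarcomere gene (grey) over that gene's mean of the 6 libraries, with the sugar diet libraries left of the control diet libraries. *Act79B* and *Act87E* were highest in replicate 1 of both diets (2064 and 2953 normalized counts in SD replicate 1, and 2394 and 3268 in CD replicate 1), as were 15 of 21 sarcomere genes.

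Sarcomere genes, which encode the proteins that organise actin and myosin in muscle, followed the same libraries. Of 21 sarcomere genes with a mean of at least 50 normalized counts, 15 were highest in replicate 1 of both diets. Over the 6 libraries a correlation above 0.9 was found for 13 of 21 sarcomere genes with *Act87E*, 10 with *Act79B* and 2 with *Act88F*, and for 0 with *Act57B*, *Act5C* and *Act42A*. The median correlation of the 21 genes was 0.91 with *Act87E*, 0.90 with *Act79B*, 0.82 with *Act88F* and 0.34 with *Act57B*. It was 0.12 with *Act5C* and -0.63 with *Act42A*. Of all 9014 genes of this range, 1.72% exceeded 0.9 with *Act87E* and 1.79% with *Act79B*.

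The 2 genes whose pattern over the 6 libraries was most like each member were also listed, by Pearson correlation over 9014 genes. *Act5C* was followed by *Ugt36D1* (0.988) and *CG5828* (0.985), and *Act42A* by *CG8001* (0.997) and *Akap200* (0.995). *Act57B* was followed by *Hacd2* (0.988) and *Edc3* (0.985), and *Act88F* by *CG14965* (0.992) and *CG5021* (0.980). *Act87E* was followed by *CG14445* (0.995) and *Obp19b* (0.992), and *Act79B* by *ssp7* (0.996) and *uncNacbeta* (0.995). For *ssp7* the coefficient with *Act79B* was 0.629 when unstranded counts were used. These are the highest of 9014 coefficients, each over 6 libraries, and they do not show that the genes are linked. Of all genes of this range, 0.632% (*Act88F*) to 2.36% (*Act42A*) exceeded 0.9 with a member.

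The machinery that folds, nucleates, remodels and moves along actin was next compared between diets. Practical equivalence was found for 7 of 7 actin-folding genes, 33 of 35 assembly genes, 11 of 12 motor genes and 7 of 9 actin-related protein genes. Of the 61 genes of these lists with a mean of at least 50 normalized counts, 58 were practically unchanged, beside 72.6% of all genes of that range. Among the actins themselves, *Act5C* and *Act57B* passed that test and the other 4 did not. *CCT2* and *CCT6*, subunits of the chaperonin that folds actin and tubulin, had log2 fold changes of -0.01 and 0.03 (DESeq2 q = 0.995 and 0.974). For the sarcomere genes the log2 fold changes had their median at -0.22, and 20 of 23 lay below 0. The median of all genes with a mean of at least 50 normalized counts was -0.03, and their share below 0 was not counted. Of the 23 sarcomere genes 1 was called lower and 0 higher, beside 73 lower and 594 higher of the 9019 genes of that range. Practically unchanged were 14 of 23 (14 of the 21 with a mean of at least 50 normalized counts). *Strn-Mlck*, a large muscle protein of the titin and myosin light chain kinase family, was the gene called lower, with 5744, 5630 and 5252 normalized counts in SD replicates 1 to 3, against 6232, 6431 and 6520 in CD replicates 1 to 3 (log2 fold change -0.21 ± 0.08 (SE); DESeq2 q = 0.0915). The SD libraries all lay below the CD libraries, and the change was small enough to pass the equivalence test too (equivalence q = 2.7e-05). The edgeR test did not call it (q = 0.176), and the DESeq2 call was lost in turn without each library but SD replicate 1 (q = 0.120 to 0.385).

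**Figure D4:**
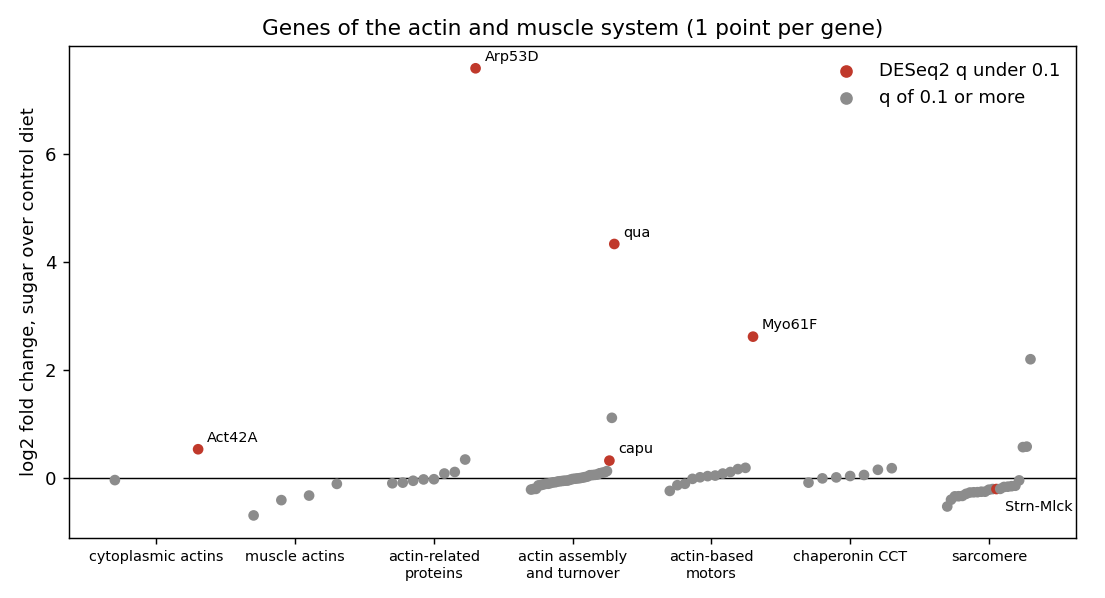
Log2 fold change (sugar over control diet) of every gene in the lists of the actin and muscle system, each gene a point, with genes of DESeq2 q under 0.1 named. Most points lie near 0, the sarcomere genes have a median of -0.22, and *Arp53D* (7.58), *qua* (4.33) and *Myo61F* (2.61) stand above the rest; *fln* and *TpnC4* are not drawn.

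In the folding, assembly, motor and actin-related protein lists, 4 of 63 genes rose on the sugar diet. Among those with a mean of at least 50 normalized counts 3 of 61 rose, a share near the 6.59% of all genes of that range. *Arp53D*, an actin-related protein known for expression in the testis, had 28.8, 65.6 and 122.0 normalized counts in SD replicates 1 to 3, against 0, 1.51 and 0 in CD replicates 1 to 3. Its level in SD libraries was at least 22.0-fold higher than a floor of 3 counts per library in CD libraries (DESeq2 q = 2.32e-07; edgeR q = 0.00229). Without SD replicate 3 the level was at least 14.4-fold higher. The fitted log2 fold change of 7.58 is no bound, since 2 of 3 CD libraries had no count. *qua* (quail), a villin-like protein that bundles actin in the nurse cells of the ovary, had 77.2, 89.1 and 184.0 in SD replicates 1 to 3, against 4.69, 6.05 and 6.89 in CD replicates 1 to 3. The diets were far apart (log2 fold change 4.33 ± 0.55, SE; DESeq2 q = 2.31e-13; edgeR q = 0.00114). *Myo61F*, a class I myosin, had 177.6, 171.6 and 586.9 in SD replicates 1 to 3, against 66.4, 59.0 and 27.6 in CD replicates 1 to 3 (log2 fold change 2.61 ± 0.46 (SE); DESeq2 q = 4.33e-07). The value of *Myo61F* was carried in part by SD replicate 3, without which the log2 fold change was 1.78. *capu* (cappuccino), a formin that nucleates actin filaments in the oocyte, had 1449, 1667 and 1828 in SD replicates 1 to 3, against 1248, 1396 and 1321 in CD replicates 1 to 3 (log2 fold change 0.32 ± 0.12 (SE); DESeq2 q = 0.0658). The difference was small enough to pass the equivalence test too (equivalence q = 0.0430). Its call was lost without SD replicates 2 or 3 and without CD replicates 1 or 3 (q = 0.193 to 0.412).

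*Arp53D*, *qua*, *Myo61F*, *capu* and *Act42A* each had their highest value in SD replicate 3, the library with the highest sums of testis, accessory gland and gut markers. Their relation to those markers was not tested. All of these genes were named because they were called higher on the sugar diet. The share of all genes with their highest value in SD replicate 3 was not counted. The muscle markers showed no excess on the sugar diet, with 0 of 5 called. All of them are also in the sarcomere list, so this is no separate result. Of all genes with a mean of at least 50 normalized counts 7.4% were called. The sum of the muscle markers was lower in SD replicates 2 and 3 than in any CD library. In SD replicate 1 it was 40962, above CD replicates 2 (40437) and 3 (38140), so that the diets overlapped.

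**Figure D5:**
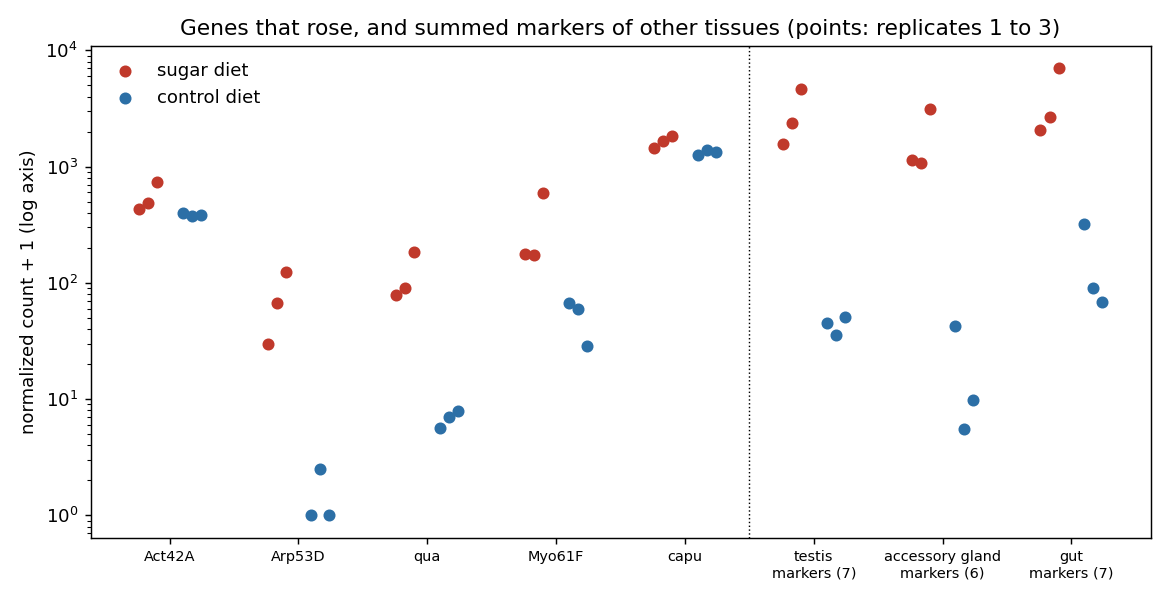
Normalized counts plus 1 (log axis) of *Act42A* and of actin-system genes that rose on the sugar diet, beside the summed testis, accessory gland and gut markers, in the 3 sugar diet libraries (left) and the 3 control diet libraries (right). SD replicate 3 was the highest library for each, with 740.9 for *Act42A*, 122.0 for *Arp53D* and 4671 for the summed testis markers.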

How the data were processed

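RNA was sequenced from 6 libraries, 3 per diet. The authors deposited raw read counts per gene, in tables of 4 columns in the layout that STAR writes, while the study's methods name HTSeq for counting. The submitters' processing notes name STAR, SAMtools 1.4, HTSeq, DESeq2 1.18.0 and the BDGP6 build, whose coordinates are those of dm6. The annotation release used for counting was not given in the sources used here, and gene coordinates and symbols come from Ensembl release 115. Rows that name no gene (unmapped, multi-mapping, no feature and ambiguous reads) held 40.9% to 47.3% of reads and were left out. Sense counts, which held 97.2% of the stranded counts, were used. Symbols matched 17215 of 17489 identifiers. The listed genes *zip*, *wupA*, *Arpc4*, *LIMK1* and *CCT8* had no match and were not analysed here.

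Diets were compared, as in the study, by DESeq2 1.42.0 in R 4.3.3 (Wald test, two-sided) over genes with at least 1 count, and p-values were adjusted by Benjamini-Hochberg to give q, with a threshold of 0.1. The equivalence test took the DESeq2 standard error, a normal distribution and a margin of 1.5-fold. Alternatives were TMM scaling, size factors from genes with at least 100 counts in each library, a filter of 10 counts in 3 libraries, unstranded counts, edgeR 4.0.16, q under 0.05, a margin of 2-fold, the replicate number as a block, and each library left out in turn. The scripts were tested on simulated data. The named genes were the 6 actins and, from each list of other actin and muscle genes, the 4 of largest change with q under 0.1 and a mean of at least 10, or else the 2 of highest mean. The members and lists were chosen with earlier results of these data known. Counting floors cover counting error only, since reads are not independent molecules. p-values measure the spread between pools of heads.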

Additional observations from a re-analysis of the deposited data

How the results depend on the processing

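The limits are 3 libraries per diet, uncounted multi-mapping reads and marker genes of other tissues that differ between diets. The count of genes differing between diets was 667 among those with a mean of at least 50 normalized counts (chosen after seeing the data), against 2067 among all tested, and 1443 to 2532 with 1 library left out. The actin genes called numbered 0 with unstranded counts, with edgeR and at q under 0.05, and 0 to 2 with 1 library left out. The actin genes practically unchanged numbered 4 with a 2-fold margin and 2 to 3 with 1 library left out. The log2 difference of the muscle to cytoplasmic ratio was -0.33 to -0.10 with 1 library left out.

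Some values that passed no test changed sign, and the cause was not tested. With size factors from genes of at least 100 counts *Act5C* was at 0.011 and *CCT2* at 0.042, and with edgeR *CCT2* was at 0.0032. With 1 library left out, *Act57B* ranged from -0.23 to 0.013, *CCT2* from -0.047 to 0.032, *CCT6* from -0.020 to 0.10, *fln* from -1.73 to 0.13 and *TpnC4* from -0.40 to 3.80. edgeR left out *fln* and *TpnC4* as too low. *Strn-Mlck* lost its call with TMM scaling (q = 0.102) and with size factors from genes of at least 100 counts (q = 0.268), and *capu* with unstranded counts (q = 0.103).

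Over 11486 genes with a mean of at least 10 normalized counts, libraries of the same number did not deviate together on average. The mean correlation of same-number deviations was -0.035 over 3 pairs, with 1 of 3 libraries closest to its own number. This correlation was not taken for muscle genes alone. *Act79B*, *Act87E*, *Act88F* and 15 of 21 sarcomere genes were highest in replicate 1 of both diets. A DESeq2 fit with a replicate block called 1842 genes, among them 2 actin genes, both lower on the sugar diet. These were *Act79B* (log2 fold change -0.48, q = 0.0108) and *Act87E* (log2 fold change -0.35, q = 0.0268). *Act42A* was not called (q = 0.199). In the same fit *Act87E* also passed the equivalence test, so that its change was within 1.5-fold.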
